A study of Homo sapiens with 10 samples.

Results

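The liver secretes most of the abundant proteins of blood plasma, and Caco-2, a line from a human colon carcinoma that resembles enterocytes when grown, also expresses the genes of several of them. The 10 genes described here encode such proteins: the fibrinogen chains FGA, FGB and FGG, the serpins SERPINA1 and AGT, the carriers TTR and RBP4, the complement protein C3, the adhesion protein VTN and the fetuin AHSG. They were chosen by symbol from the 60554 genes of the deposited tables, and all 10 were found, with 76 annotated transcripts. All 10 were also among the 11640 genes tested, so no gene had to be tested outside that set.

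Caco-2 cells carrying dCas9-KRAB, a Cas9 that binds DNA without cutting and is fused to a repressor domain, were compared in 3 groups. All cells came from a dCas9-KRAB line cloned after puromycin selection and were infected again with a lentiviral, hygromycin-selectable guide plasmid. That plasmid was empty in 5 libraries (gCtl) and carried guide g1 in 3 or guide g2 in 2 libraries, both guides directed at the long non-coding RNA LHFPL3-AS2. The purpose of the comparison was to ask which genes change in cells in which this RNA is targeted. Replicate numbers were given here by the order of the libraries within each group, and an equal number links no libraries across groups. No time or dose was part of the labels, and no source states whether the libraries of a group were separate cultures, so p-values measure the spread between these libraries alone, which may be technical.

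Reads of these libraries start near the polyA tail, and the values are the authors' estimated counts per transcript, summed here per gene. Totals ranged from 3838803 to 8730468 estimated counts per library. RPM is a gene's share of that total per 1000000, CPM the same after TMM scaling, and TPM a share per 1000000 after division by transcript length. LHFPL3-AS2 was not lower in the libraries labelled g1 or g2, which held 2.03 to 6.01 RPM against 0.841 to 3.73 RPM in gCtl (log2 fold change of all 5 against gCtl 0.61, standard error 0.42, edgeR adjusted p = 0.381). These levels rest on 57 estimated counts in gCtl, 54 in g1 and 57 in g2, too few to check the labels closely. The study also measured this RNA by qPCR and reported it reduced with both guides, measurements that were not analysed here. Directions are given by the labels. Of 15 markers of enterocytes and intestinal epithelium, 9 passed the filter, and their list summed to 1081 to 1229 RPM in gCtl, 1250 to 1369 RPM in g1 and 1209 to 1264 RPM in g2. Most of each sum was EPCAM, at 670 to 872.4 RPM. VIL1, CDX2, CDH17 and DPP4 were each at 38.1 RPM or more in every library, while CDX1, GPA33, SI, ALPI and ANPEP reached at most 2.86 RPM. KRT20 was at 1.08 to 4.22 RPM in gCtl, 1.94 to 4.01 RPM in g1 and 8.97 to 9.97 RPM in g2. Of 12 hepatocyte markers, 6 passed, F9 and APCS had no count in any library, and the list summed to 117 to 168.8 RPM in gCtl, 154.5 to 655.3 RPM in g1 and 74.5 to 78.7 RPM in g2. In bulk RNA, more or fewer cells of a type cannot be told apart from more or less RNA per cell.

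As background, fibrinogen is assembled from 3 pairs of chains and is cut by thrombin to form the clot. SERPINA1 inhibits neutrophil elastase, while AGT belongs to the same fold family but is the precursor of angiotensin. TTR carries thyroxine and, by binding RBP4, the retinol complex of plasma. C3 is the central protein of complement, VTN links cells to matrix and restrains the terminal complement complex, and AHSG binds calcium phosphate in plasma. In liver these genes are known to depend on factors such as HNF4, C/EBP and, for the acute phase members, STAT3.

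The fibrinogen genes lie side by side on chromosome 4 (GRCh38), FGB at chr4:154562956-154571086 on the plus strand, FGA at chr4:154583126-154590766 and FGG at chr4:154604134-154612967, both on the minus strand. Their promoter windows are shown because the chains rose together in the g1 libraries while their ratios shifted, and those of AGT and AHSG because these genes were the ones lower with g2 by the largest amounts. The windows run from 250 bases before to 50 bases after a RefSeq start site (GRCh38.p14), 5′ to 3′ on the strand of the gene. Capitals mark every match to 5 motifs searched on both strands.
FGA, chr4:154590693-154590992, minus strand: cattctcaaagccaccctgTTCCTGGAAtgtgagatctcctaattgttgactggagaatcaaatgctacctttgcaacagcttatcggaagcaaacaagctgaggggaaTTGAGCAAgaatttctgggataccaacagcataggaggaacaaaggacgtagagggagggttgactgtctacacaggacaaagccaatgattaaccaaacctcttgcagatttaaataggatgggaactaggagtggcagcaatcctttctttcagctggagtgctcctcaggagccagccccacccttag
FGB, chr4:154562730-154563029, plus strand: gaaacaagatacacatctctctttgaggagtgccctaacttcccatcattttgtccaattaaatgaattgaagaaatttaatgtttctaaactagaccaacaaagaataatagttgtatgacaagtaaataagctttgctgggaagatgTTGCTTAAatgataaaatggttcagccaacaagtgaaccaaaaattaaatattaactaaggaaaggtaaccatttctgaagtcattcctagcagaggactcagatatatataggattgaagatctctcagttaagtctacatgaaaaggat
FGG, chr4:154612607-154612906, minus strand: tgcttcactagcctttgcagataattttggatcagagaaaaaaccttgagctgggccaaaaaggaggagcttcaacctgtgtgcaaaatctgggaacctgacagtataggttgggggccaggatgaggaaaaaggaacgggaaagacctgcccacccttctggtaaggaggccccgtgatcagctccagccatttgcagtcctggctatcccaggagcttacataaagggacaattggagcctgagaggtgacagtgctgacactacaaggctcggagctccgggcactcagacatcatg
AGT, chr1:230714073-230714372, minus strand: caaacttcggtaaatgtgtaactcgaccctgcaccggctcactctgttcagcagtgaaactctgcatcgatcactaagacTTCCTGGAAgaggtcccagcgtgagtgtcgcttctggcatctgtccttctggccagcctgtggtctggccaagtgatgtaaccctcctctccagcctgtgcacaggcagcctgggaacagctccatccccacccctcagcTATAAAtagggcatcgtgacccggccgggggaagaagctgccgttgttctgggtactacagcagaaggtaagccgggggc
AHSG, chr3:186612810-186613109, plus strand: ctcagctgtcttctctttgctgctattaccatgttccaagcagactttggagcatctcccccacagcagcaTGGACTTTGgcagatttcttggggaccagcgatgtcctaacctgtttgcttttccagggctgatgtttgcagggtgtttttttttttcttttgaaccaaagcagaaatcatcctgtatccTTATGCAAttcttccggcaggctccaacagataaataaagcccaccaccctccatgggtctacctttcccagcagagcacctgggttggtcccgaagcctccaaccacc

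The motifs were HNF4 (CAAAGTCCA) with up to 1 mismatch, and C/EBP (TTGCNNAA), STAT3 (TTCNNNGAA), FOXA (TGTTTAC) and the TATA box (TATAAA) with none. In FGA the capitals are a STAT3 match 231 bases and a C/EBP match 141 bases before the start site. The FGB window held a C/EBP match 101 bases before its start site. The FGG window held none of the 5 motifs. AGT held a STAT3 match 170 bases and a TATA box 30 bases before its start, and AHSG an HNF4 match 179 bases and a C/EBP match 59 bases before it.

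Of the 10 genes, 8 had 12 RefSeq windows between them, and TTR and C3 had none. An HNF4 match was present in windows of AHSG and SERPINA1, against 6.97% of all 35116 windows. Also present were a C/EBP match for AHSG, FGA, FGB, RBP4 and VTN (10.5%), a STAT3 match for AGT, FGA, RBP4 and VTN (7.66%), a TATA box for AGT and RBP4 (11.5%) and a FOXA match for none (3.42%). RBP4 had 3 windows and SERPINA1 and FGB had 2 each, which gives these genes more bases in which a match can fall. A match is a stretch of letters and was not tested as a site.

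In gCtl, the genes spanned a wide range of levels. Per length, RBP4 led at 182.5 ± 15.9 TPM (SD, n = 5), and its lowest library lay above the highest of the next gene, AHSG, at 128.1 ± 18.6 TPM. AHSG, AGT (108.7 ± 21.8 TPM), VTN (96.1 ± 18.6 TPM), TTR (88.0 ± 17.2 TPM) and C3 (73.4 ± 17.1 TPM) each overlapped the next in that order. SERPINA1 followed at 44.0 ± 9.80 TPM and FGB at 18.1 ± 4.73 TPM, neither overlapping its neighbours. FGG (4.04 ± 1.32 TPM) and FGA (3.90 ± 1.58 TPM) were lowest and overlapped each other. RBP4 thus stood at the 95.7th percentile of the genes tested and FGA at the 25.0th.

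Dividing by length can mislead where reads come from the 3′ end, and the order on RPM was different at the top. AGT was highest there at 194.3 ± 39.2 RPM, followed by AHSG at 164.6 ± 23.0 RPM and RBP4 at 152.2 ± 14.3 RPM, all with overlapping ranges. The fibrinogen chains were the lowest on both scales, with FGB at 20.9 ± 3.38 RPM, FGA at 5.06 ± 1.38 RPM and FGG at 4.60 ± 1.05 RPM. The counts of AGT and RBP4 fell entirely on 1 transcript each. Those of VTN were divided between a transcript of 2149 bases and a fragment of 501 bases, which took 1.15% to 58.0% of the gene's counts depending on the library, so that the TPM of VTN moves with this split.

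**Figure D1:**
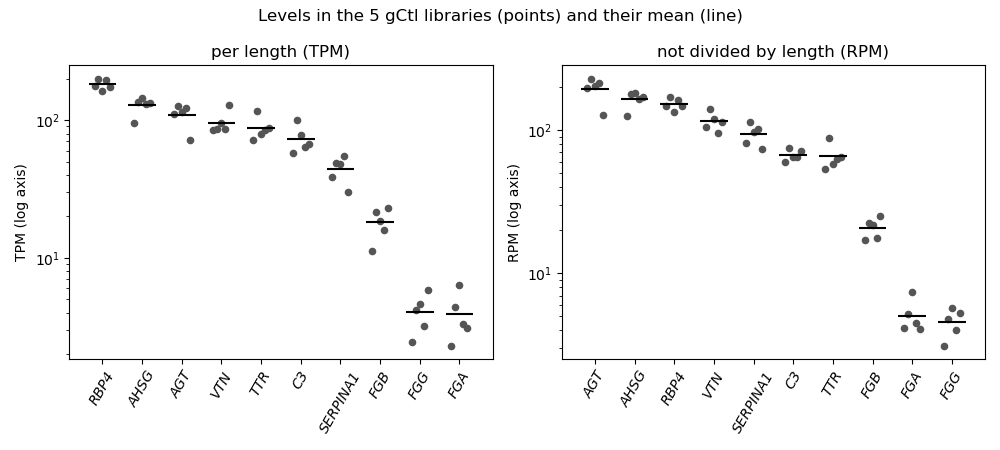
Levels of the 10 genes in the 5 gCtl libraries, on the left in TPM and on the right in RPM, both on log axes, with a point for each library and a line at the mean. RBP4 is highest per length at 182.5 TPM and AGT without division by length at 194.3 RPM, while FGB, FGA and FGG are lowest in both panels.

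For the comparisons, a gene was called at an edgeR adjusted p (Benjamini-Hochberg, over all 11640 genes) no higher than 0.05 together with at least a 1.5-fold change. In the 5 libraries labelled knockdown (g1 and g2 together) against gCtl, 8 of the 10 genes were called, where 19.2% of all genes tested were called. Higher were 7 genes (C3, FGA, FGB, FGG, SERPINA1, TTR and VTN; background 8.14%) and lower was AGT (background 11.0%). The median log2 fold change of the 10 genes was 0.85, and that of all genes tested was 0.02. For 3 genes (AGT, FGB and VTN) the libraries of both groups did not overlap, against 15.5% of all genes tested.

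Split by guide, the pattern was not the same. With g1, 9 of 10 genes were called (16.8% of all genes), 8 higher (6.81%) and AGT lower (9.94%). The median log2 fold change was 1.10 against 0.01 over all genes tested. With g2, 5 of 10 were called (23.7% of all genes), FGB and FGG higher (10.7%) and AGT, AHSG and RBP4 lower (13.0%), with a median of 0.37 against -0.0017. In the direct test of g2 against g1, 6 of 10 were called (4.98% of all genes), all 6 lower with g2 (3.42%) and 0 higher (1.56%), with a median of -1.56 against 0.0089. None of the 10 was higher with g2 at an unadjusted edgeR p under 0.05, by DESeq2 or by limma on RPM or TPM. Both guide comparisons use the same 5 gCtl libraries. Summed over the 10 genes, the level was 793.4 to 1031 RPM in gCtl, 1412 to 1539 RPM in g1 and 625.6 to 660.2 RPM in g2, and the 3 ranges did not overlap.

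**Figure D2:**
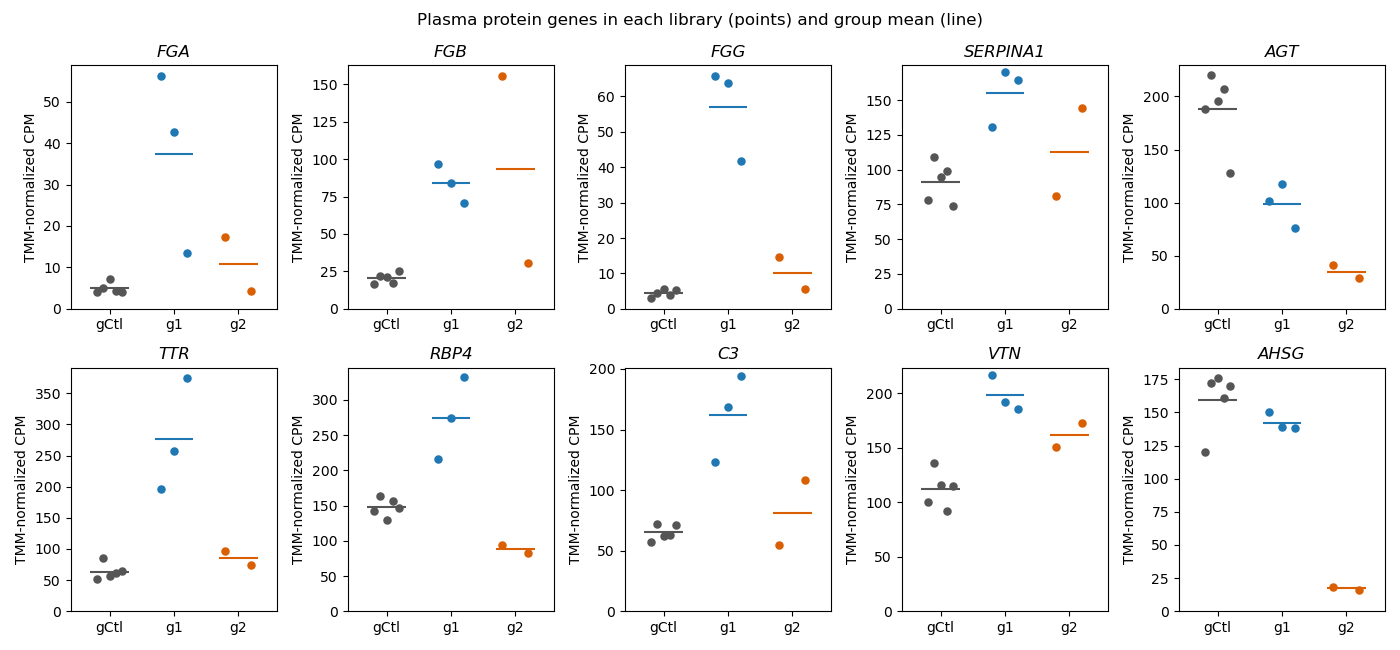
TMM-normalized CPM of each gene (linear axes starting at 0) in the 5 gCtl, 3 g1 and 2 g2 libraries, with a point for each library and a line at each group's mean. FGA, FGB, FGG and TTR are higher in all g1 libraries than in any gCtl library, AGT is lower in all g1 and g2 libraries than in any gCtl library, and AHSG is low in both g2 libraries alone.

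The fibrinogen chains rose with g1. FGG, the gamma chain, was at 2.999, 4.59, 5.58, 3.85 and 5.28 CPM in gCtl, at 65.7, 63.9 and 41.8 CPM in g1, and at 14.5 and 5.52 CPM in g2. Every g1 library lay above every gCtl library, while the lower g2 library lay within the gCtl range. The log2 fold change was 3.65 (standard error 0.27, edgeR adjusted p = 1.67e-06) with g1, a 12.5-fold difference, and 1.12 (standard error 0.34, edgeR adjusted p = 0.0229) with g2. The gCtl values of FGG rest on 12 to 32 estimated counts per library. Between the guides, FGG was lower in the g2 libraries (log2 fold change -2.52, standard error 0.35, edgeR adjusted p = 0.00108). Without g2 replicate 1 the g2 change was 0.28 (edgeR adjusted p = 0.592), so its call rests on that library. It was also lost with limma, at 0.77 on log2(RPM + 1) and 0.78 on log2(TPM + 1) (limma adjusted p = 0.0818 and 0.119).

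FGA, the alpha chain that carries fibrinopeptide A, was at 3.999, 4.96, 7.15, 4.33 and 4.05 CPM in gCtl and at 56.2, 42.6 and 13.5 CPM in g1. In g2 it was at 17.4 and 4.22 CPM, on either side of the highest gCtl library. With g1 the log2 fold change was 2.91 (standard error 0.43, edgeR adjusted p = 0.000388), a 7.49-fold difference. With g2 it was 1.10 (standard error 0.51, edgeR adjusted p = 0.121), below the threshold, and it was -0.24 (edgeR adjusted p = 0.803) without g2 replicate 1 and 1.81 (edgeR adjusted p = 0.0305) without g2 replicate 2. The difference between g2 and g1 was -1.81 (standard error 0.54, edgeR adjusted p = 0.0645) and passed the threshold without g1 replicate 3 (-2.20, edgeR adjusted p = 0.0123) or without g2 replicate 1 (-3.12, edgeR adjusted p = 0.0118). It also passed with library totals in place of TMM (-1.96, edgeR adjusted p = 0.0437) and on log2(RPM + 1) (-1.86, limma adjusted p = 0.0417).

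FGB, the beta chain, was at 16.5, 21.7, 20.9, 17.1 and 25.2 CPM in gCtl, at 97.0, 83.8 and 70.9 CPM in g1, and at 155.8 and 30.8 CPM in g2. It was above the gCtl range in all 5 libraries labelled g1 or g2, and the highest and the lowest of these 5 were the g2 libraries. The log2 fold change was 2.04 (standard error 0.33, edgeR adjusted p = 0.000805) with g1 and 2.19 (standard error 0.36, edgeR adjusted p = 0.000626) with g2. Without g2 replicate 1, the g2 value was 0.59 (edgeR adjusted p = 0.0705) and the difference of g2 from g1 turned from 0.15 (standard error 0.40) to -1.43 (edgeR adjusted p = 0.00632). Without g2 replicate 2, that difference was 0.92 (edgeR adjusted p = 0.0336).

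The balance between the chains was not the same in the 3 groups, as a description of counts within each library with no test. FGG counts per FGB count were 0.182 to 0.267 in gCtl, 0.589 to 0.763 in g1 and 0.0932 and 0.179 in g2, ranges that did not overlap. FGA counts per FGB count were 0.161 to 0.342 in gCtl and 0.112 and 0.137 in g2. In g1 they were 0.579, 0.509 and 0.191, so that g1 replicate 3 lay within the gCtl range. FGB supplied 62.2% to 73.0% of the fibrinogen counts in gCtl, 44.0% to 56.2% in g1 and 76.0% and 83.0% in g2. Estimated counts of these genes were divided among several transcripts, of which FGB-001 took 57.9% to 98.4% of FGB counts, FGA-001 40.4% to 90.9% of FGA counts and no FGG transcript more than 75.6% of FGG counts in any library.

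**Figure D3:**
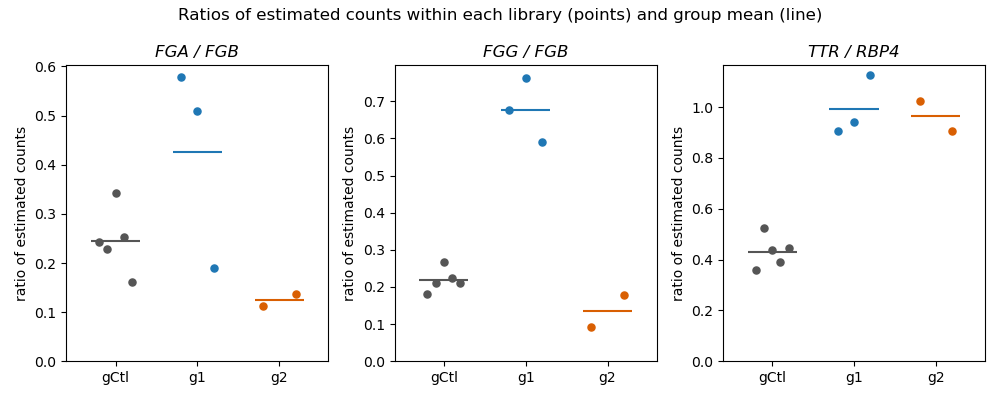
Ratios of estimated counts within each library (linear axes starting at 0), FGA to FGB, FGG to FGB and TTR to RBP4, with a point for each library and a line at the group mean. FGG to FGB is highest in the g1 libraries (0.589 to 0.763), whereas TTR to RBP4 is above 0.9 in the g1 and g2 libraries and at most 0.523 in gCtl.

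The carriers TTR and RBP4 circulate as a complex, and their transcripts did not move alike. TTR was at 51.2, 85.2, 56.5, 60.9 and 65.3 CPM in gCtl, at 196.0, 258.0 and 374.6 CPM in g1, and at 97.0 and 74.1 CPM in g2. All g1 libraries were above all others, and the lower g2 library fell inside the gCtl range. TTR rose 4.32-fold with g1 (log2 fold change 2.11, standard error 0.20, edgeR adjusted p = 1.64e-05). With g2 the log2 fold change was 0.42 (standard error 0.23, edgeR adjusted p = 0.192), and g2 was below g1 by a log2 fold change of -1.69 (standard error 0.27, edgeR adjusted p = 0.00206).

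RBP4, the plasma carrier of retinol, was at 141.9, 163.0, 129.2, 156.4 and 146.5 CPM in gCtl, at 216.5, 273.9 and 332.8 CPM in g1, and at 94.7 and 82.0 CPM in g2. The 3 groups did not overlap, with g1 above and g2 below gCtl. It rose with g1 (log2 fold change 0.90, standard error 0.15, edgeR adjusted p = 0.000885) and fell with g2 (-0.74, standard error 0.18, edgeR adjusted p = 0.008), and the guides differed by -1.64 (standard error 0.20, edgeR adjusted p = 0.000414). Its g2 call was lost without g2 replicate 2 (-0.63, edgeR adjusted p = 0.0812). With both guides pooled, RBP4 was not called (0.44, edgeR adjusted p = 0.308). RBP4 overlaps FFAR4 on the opposite strand, a gene with 1825 estimated counts over all libraries, and the strand setting of the counting is not given in the sources used here.

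TTR counts per RBP4 count were 0.361 to 0.523 in gCtl, 0.905 to 1.13 in g1, and 1.03 and 0.904 in g2. Relative to RBP4, TTR was thus higher in all 5 libraries labelled g1 or g2 than in any gCtl library, although RBP4 was above gCtl with g1 and below it with g2.

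Of the serpins, AGT fell with both guides. It was at 188.2, 219.8, 195.9, 207.5 and 127.7 CPM in gCtl, at 101.6, 117.5 and 76.5 CPM in g1, and at 41.4 and 28.6 CPM in g2. The groups were ordered gCtl, g1, g2 with no overlap, gCtl replicate 5 being the gCtl library nearest to the others. The fold was 0.524 with g1 (log2 fold change -0.93, standard error 0.20, edgeR adjusted p = 0.00405) and 0.186 with g2 (-2.43, standard error 0.25, edgeR adjusted p = 1.72e-05). The direct difference between the guides was -1.49 (standard error 0.25, edgeR adjusted p = 0.0036).

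SERPINA1 was at 78.2, 108.7, 94.7, 98.7 and 73.7 CPM in gCtl, at 130.8, 170.1 and 164.4 CPM in g1, and at 81.1 and 144.1 CPM in g2. The g1 libraries were above the gCtl range, and g2 replicate 1 was within it. The log2 fold change was 0.77 (standard error 0.18, edgeR adjusted p = 0.00822) with g1 and 0.31 (standard error 0.21, edgeR adjusted p = 0.286) with g2. The g2 value became -0.16 (edgeR adjusted p = 0.689) without g2 replicate 2 and 0.66 (edgeR adjusted p = 0.0324) without g2 replicate 1. Pooled over the guides it was 0.60 (standard error 0.18, edgeR adjusted p = 0.0276), at a fold of 1.52, and this call was lost without gCtl replicate 1, 3 or 5, g1 replicate 2 or 3, or g2 replicate 2, with log2 fold changes of 0.52 to 0.62. It was also lost with library totals (0.52, edgeR adjusted p = 0.0712), over genes of all biotypes (0.56, edgeR adjusted p = 0.0505), on log2(RPM + 1) (0.48, limma adjusted p = 0.0952) and on log2(TPM + 1) (0.31, limma adjusted p = 0.38). On log2(TPM + 1) the g1 call was lost too (0.58, limma adjusted p = 0.0999).

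C3 was at 57.5, 72.0, 62.4, 63.1 and 71.6 CPM in gCtl, at 123.5, 169.0 and 194.0 CPM in g1, and at 54.9 and 108.0 CPM in g2. The g2 libraries stood on opposite sides of the gCtl range. C3 rose 2.48-fold with g1 (log2 fold change 1.31, standard error 0.19, edgeR adjusted p = 0.000388). With g2 it was 0.32 (standard error 0.22, edgeR adjusted p = 0.304), with 0.72 (edgeR adjusted p = 0.0221) without g2 replicate 1 and -0.25 (edgeR adjusted p = 0.519) without g2 replicate 2. The difference between the guides (-0.99, standard error 0.25, edgeR adjusted p = 0.0334) lost its call without gCtl replicate 3 or 4, g1 replicate 2 or 3, or g2 replicate 1, with values of -0.99 to -0.58. On log2(TPM + 1) the g1 change of C3 was 0.45 (limma adjusted p = 0.279), where a transcript of 368 bases with a retained intron took 10.1% to 34.1% of its counts. C3 also overlaps GPR108 on the same strand, which had 546 estimated counts over all libraries.

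VTN was at 100.7, 135.7, 116.3, 91.7 and 114.5 CPM in gCtl, at 217.1, 192.4 and 185.6 CPM in g1, and at 150.3 and 173.0 CPM in g2. All 5 libraries labelled g1 or g2 were above all gCtl libraries. The log2 fold change was 0.83 (standard error 0.14, edgeR adjusted p = 0.00118) with g1. With g2 it was 0.53 (standard error 0.16, edgeR adjusted p = 0.0255), a fold of 1.44 that fell short of the 1.5-fold threshold, and it was called without gCtl replicate 2 (0.61, edgeR adjusted p = 0.0179) or without g2 replicate 1 (0.62, edgeR adjusted p = 0.0288). On log2(TPM + 1) the VTN changes were larger and both called, at 1.46 with g1 and 1.20 with g2. TPM of VTN was 84.2 to 128.3 in gCtl and 170.8 to 312.5 in the libraries labelled g1 or g2. The part of the split between its transcripts in this was not tested. The difference between the guides in the edgeR fit was -0.30 (standard error 0.18, edgeR adjusted p = 0.382). SARM1 overlaps VTN on the opposite strand, with 1457 estimated counts over all libraries.

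AHSG, fetuin-A, separated the guides most. It was at 120.0, 172.4, 175.6, 160.5 and 169.6 CPM in gCtl, at 150.1, 138.8 and 138.0 CPM in g1, and at 18.7 and 15.9 CPM in g2. The g1 libraries lay inside the gCtl range, and both g2 libraries far below it. AHSG fell with g2 to 0.108 of gCtl (log2 fold change -3.21, standard error 0.21, edgeR adjusted p = 2.79e-07). With g1 the log2 fold change was -0.17 (standard error 0.14, edgeR adjusted p = 0.447). The guides differed by -3.05 (standard error 0.21, edgeR adjusted p = 1.51e-06), and this difference lay between -3.16 and -2.91 in the 18 other settings tried. AC068631.1 overlaps AHSG on the opposite strand, with 458.9 estimated counts over all libraries and at most 77.6 in any library.

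**Figure D4:**
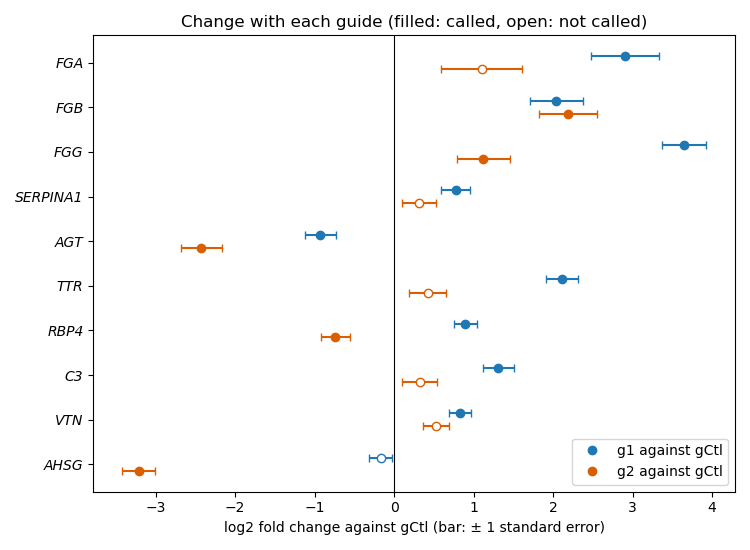
Log2 fold change against gCtl for g1 (3 libraries) and g2 (2 libraries), with bars of 1 standard error on either side, filled where called and open where not. RBP4 is at 0.90 with g1 and -0.74 with g2, AHSG at -0.17 and -3.21, and the fibrinogen chains lie right of 0 with both guides, FGA with g2 uncalled.

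Some other measures differed between groups. The share of mitochondrial counts was 18.3% to 23.97% in gCtl, 19.0% to 20.6% in g1, and 16.8% and 12.04% in g2. For this share, the g1 libraries lay inside the gCtl range and both g2 libraries below it. Albumin (ALB), the main plasma protein, was at 53.8 to 82.5 CPM in gCtl, at 96.0, 129.1 and 661.9 CPM in g1, and at 56.7 and 37.4 CPM in g2. It was called higher with g1 (log2 fold change 2.15, standard error 0.43, edgeR adjusted p = 0.00295), and g1 replicate 3 was the library that set the high end of the hepatocyte list. The hepatocyte receptor subunit ASGR2, named after its values were seen, was at 39.4 to 68.1 CPM in gCtl, at 13.2 to 29.2 CPM in g1, and at 8.61 and 13.7 CPM in g2. The part of these measures in the results on the plasma protein genes was not tested. Fibroblast markers summed to at most 10.9 RPM in any library (1 of 6 passed the filter), and those of macrophages and leukocytes to at most 32.0 RPM (2 of 7 passed).

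The plasma protein genes outside the 10 were followed by lists of related genes. Of all genes tested, 8.14% were called higher and 11.0% lower with g1 and g2 together. These shares were 6.81% and 9.94% with g1, 10.7% and 13.0% with g2, and 1.56% and 3.42% for g2 against g1. The lists are short and were not tested as sets, and a count near these shares is no result about a list. In plasma transport and carrier proteins, 9 genes were tested and AFP, the fetal counterpart of albumin, was called higher in the libraries labelled knockdown, with a list median of 0.50. edgeR called 0 lower (ORM2 at an unadjusted p under 0.05, with 0 by DESeq2 and 1 by limma). AFP was at 30.3 to 60.7 CPM in gCtl, at 207.3, 393.3 and 1239 CPM in g1, and at 59.5 and 88.1 CPM in g2. AFP rose with g1 (log2 fold change 3.67, standard error 0.40, edgeR adjusted p = 5.99e-05) and was lower with g2 than with g1 (-3.05, standard error 0.55, edgeR adjusted p = 0.0055). With g1, AFP and ALB were called higher (median 0.75). With g2, APOH, ORM1 and ORM2 were lower (median -0.51), and against g1 AFP, ALB, APOH and ORM1 were lower (median -2.34). APOH, an anionic phospholipid-binding protein named after its values were seen, was at 14.1 to 22.2 CPM in gCtl, 23.4 to 30.1 CPM in g1, and 4.12 and 3.78 CPM in g2. ORM1, its values also picked after they were seen, was at 0.75 to 5.3 CPM in gCtl and 3.17 to 8.44 CPM in g1. It had 0 counts in both g2 libraries and only 2.67 to 22.1 estimated counts per gCtl library.

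Of 14 serpins and protease inhibitors, A2M and ITIH2 were called higher and SERPINF2, SPINK1 and SPINT2 lower in the libraries labelled knockdown (list median 0.0019). A2M, a broad protease trap, rose from 0.872 to 1.47 CPM in gCtl to 2.33 to 7.81 CPM in those 5 libraries (log2 fold change 2.17, standard error 0.40, edgeR adjusted p = 0.00177). It had only 4 to 8 estimated counts per gCtl library and passed the filter through the libraries labelled g1 or g2 alone. Its call as higher was thus favoured by the filter. ITIH2, which binds hyaluronan, rose by 2.13 (standard error 0.40, edgeR adjusted p = 0.00191). SERPINF2, the plasmin inhibitor, was at 40.0 to 65.1 CPM in gCtl, 14.4 to 36.8 CPM in g1, and 7.89 and 5.38 CPM in g2. Its order of groups was that of AGT, and the guides differed by -1.91 (standard error 0.36, edgeR adjusted p = 0.00618). SPINK1, a trypsin inhibitor, fell by 1.70 and SPINT2, a membrane protease inhibitor, by 0.85 on the log2 scale (edgeR adjusted p = 0.000701 and 0.00989). With g1, 2 were higher and 5 lower (median 0.28), with g2 3 higher and 2 lower (median -0.33), and against g1 1 was higher and 1 lower with g2 (median -0.22).

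Of 16 genes of coagulation and fibrinolysis, the fibrinogen chains not among them, edgeR called 0 higher in any of the 4 comparisons, with TFPI, an inhibitor of tissue factor, at an unadjusted p under 0.05 with both guides together and with g1, 0 calls by DESeq2 or limma on RPM, and 1 by limma on TPM in each of these comparisons. F12 and PROS1 were lower in the libraries labelled knockdown (list median -0.17), F12 by 1.52 and PROS1 by 0.71 on the log2 scale (edgeR adjusted p = 0.000231 and 0.0452). F12 starts the contact pathway and PROS1 is a cofactor of protein C. With g1, F12 alone was lower (median 0.08). With g2, F10, F12, F2, F7 and FN1 were lower (median -0.63), and against g1 F2, F7 and FN1 (median -0.35). F2, prothrombin, was at 45.7 to 72.3 CPM in gCtl, 61.3 to 76.3 CPM in g1, and 30.3 and 28.6 CPM in g2, and F7 at 17.7 to 32.9, 18.0 to 32.7, and 7.35 and 3.34 CPM. F2 and F7, named after their values were seen, were below the gCtl range in both g2 libraries and not in the g1 libraries. F12 was below it in all 5, at 4.43 to 7.06 CPM in g1 and 5.02 and 4.36 CPM in g2 against 12.7 to 18.3 CPM in gCtl. FN1, fibronectin, also named after its values were seen, was at 2574 to 3169 CPM in gCtl, at 4121, 3995 and 1993 CPM in g1, and at 1369 and 1825 CPM in g2, so that 1 g1 library was below the gCtl range and the others above it.

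Of 13 genes of complement and its regulators, C2 and MASP1 were higher and C4BPB lower in the libraries labelled knockdown (list median 0.06). C2, a part of the C3 convertase, had a log2 fold change of 1.36 and MASP1, a lectin pathway protease, of 1.38 (edgeR adjusted p = 0.015 and 0.0299). MASP1 had 3.02 to 14.2 estimated counts per gCtl library and passed the filter through the libraries labelled g1 or g2 alone. The filter thus favoured its call as higher. C4BPB, a chain of the C4b-binding protein, fell by 0.67 (edgeR adjusted p = 0.025). With g1, where C3 rose, edgeR called 0 of the 13 (median 0.07), with 4 at an unadjusted p under 0.05 (C2, MASP1, C4BPB and CD59), 1 called by DESeq2, 0 by limma on RPM and 1 by limma on TPM. C2 had a g1 log2 fold change of 1.15 (edgeR adjusted p = 0.0532). With g2, C2 was higher and C4BPB, CD59 and CLU were lower (median -0.04), and against g1 CD55 was lower (median -0.21).

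Of 10 genes of the acute phase and interleukin 6 signalling, IL6R and STAT3 were higher and CEBPB and CEBPD lower in the libraries labelled knockdown (list median 0.21). IL6R, the receptor subunit that binds interleukin 6, was at 8.18 to 12.2 CPM in gCtl, at 24.9 to 39.9 CPM in g1, and at 15.6 and 33.4 CPM in g2, above gCtl in all 5 libraries (log2 fold change 1.42, standard error 0.23, edgeR adjusted p = 0.000782). STAT3, the factor activated by that receptor, was higher by 0.60 on the log2 scale (standard error 0.15, edgeR adjusted p = 0.0114). By guide, STAT3 was at 0.57 with g1 (edgeR adjusted p = 0.0269), short of the 1.5-fold threshold, and at 0.64 with g2 (edgeR adjusted p = 0.0212). The difference between the guides was 0.08 (standard error 0.21, edgeR adjusted p = 0.878). CEBPB fell by 1.24 (standard error 0.40, edgeR adjusted p = 0.0357) and CEBPD by 0.65 (standard error 0.22, edgeR adjusted p = 0.0461), both C/EBP factors of acute phase genes. CEBPB was at 3.87 to 16.5 CPM in gCtl, 3.04 to 4.33 CPM in g1, and 10.6 and 2.91 CPM in g2, with overlapping ranges. CEBPD was called with neither guide alone (g1 -0.59 and g2 -0.74, edgeR adjusted p = 0.113 and 0.0803). With g1 IL6R was higher and CEBPB lower (median 0.47), with g2 IL6R and STAT3 were higher and ORM1 lower (median 0.04), and against g1 ORM1 was lower (median -0.13). The low counts of ORM1 given above apply here too.

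Of 9 genes of retinoid handling, ALDH1A1 and RDH11 were higher and RBP2 lower in the libraries labelled knockdown (list median 0.30). RBP2, the retinol carrier inside enterocytes, was at 16.7 to 20.6 CPM in gCtl, 10.5 to 15.4 CPM in g1, and 7.12 and 5.20 CPM in g2, the same order of groups as AGT (g2 against g1 -1.08, standard error 0.26, edgeR adjusted p = 0.027). ALDH1A1, which makes retinoic acid, had a log2 fold change of 0.72 and RDH11, a retinal reductase, of 0.61 (edgeR adjusted p = 0.00733 and 0.00778). With g1, 2 were higher (median 0.19) and edgeR called 0 lower (RBP2 at an unadjusted p under 0.05, with 0 by DESeq2 or limma), with g2 2 higher and 1 lower (median 0.42), and against g1 1 higher and 1 lower (median -0.09).

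Of 5 genes of the renin-angiotensin system other than AGT, MAS1 was higher in the libraries labelled knockdown, while the list median was -0.50. edgeR called 0 lower (ATP6AP2 and CTSD at an unadjusted p under 0.05, with 1 by DESeq2 and 1 by limma on RPM). MAS1, the receptor of angiotensin 1-7, was at 12.3, 10.7, 16.7, 13.7 and 22.3 CPM in gCtl, at 15.5, 21.9 and 30.2 CPM in g1, and at 27.4 and 34.2 CPM in g2. Both g2 libraries lay above the gCtl range and 2 of the 3 g1 libraries within it, and the log2 fold change of all 5 was 0.77 (standard error 0.24, edgeR adjusted p = 0.0282). With g1, LNPEP was lower (median -0.40) and edgeR called 0 higher (MAS1 at an unadjusted p under 0.05, with 0 by DESeq2 or limma). With g2, MAS1 was higher and ATP6AP2 lower (median -0.50), and against g1 edgeR called 0 (median 0.0028, with LNPEP and ATP6AP2 at an unadjusted p under 0.05, 1 call by DESeq2 and 1 by limma on RPM).

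Among 17 liver-enriched transcription factors, HNF4G, NR5A2 and PPARA were higher and CEBPB, NR2F2 and PROX1 lower in the libraries labelled knockdown (list median 0.06). NR5A2 was at 13.0 to 16.9 CPM in gCtl and at 27.4 to 36.8 CPM in the other 5 libraries (log2 fold change 1.05, standard error 0.15, edgeR adjusted p = 0.000283). PROX1 fell by 0.93 (edgeR adjusted p = 0.00165) and NR2F2 by 0.71 (edgeR adjusted p = 0.0228), while PPARA had a log2 fold change of 0.78 and HNF4G of 1.28 (edgeR adjusted p = 0.00152 and 0.0243). HNF4G had 6 to 21 estimated counts per gCtl library and passed the filter only with the help of the libraries labelled g1 or g2. The filter thus favoured its calls as higher. By guide, NR2F2 and HNF4G were called with g2 (log2 fold changes -1.29 and 1.83). They were not called with g1 (-0.42 and 0.74, edgeR adjusted p = 0.0795 and 0.165). The guides differed by -0.87 for NR2F2 and 1.09 for HNF4G (edgeR adjusted p = 0.025 and 0.14). Of the listed factors of the motif families searched, STAT3 and HNF4G were called higher and CEBPB and CEBPD lower with g1 and g2 together, with the values already given. By guide, CEBPB alone of these was called with g1, and STAT3 and HNF4G with g2. With g1, STAT3 missed the fold threshold alone (0.57, edgeR adjusted p = 0.0269, against 0.64 with g2). HNF4A had a log2 fold change of -0.30 (edgeR adjusted p = 0.192), FOXA2 of 0.06 (edgeR adjusted p = 0.854) and CEBPA of -0.27 (edgeR adjusted p = 0.758), none of these 3 called. With g1, 2 were higher and 2 lower (median -0.15), with g2 4 higher and 3 lower (median 0.16), and against g1 1 higher and 2 lower (median -0.07).

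The genes with the most similar profile were found by the root mean square difference of log2(CPM + 1) over the 10 libraries, each gene centred on its gCtl mean. The gene nearest to FGA was FGG, at 0.62 log2 units, whereas PF4 was nearest to FGG (0.54) and FYN to FGB (0.39), followed by MTTP (0.51). For AGT they were APMAP (0.24) and SDC2 (0.25), for RBP4 NAT8L (0.22) and SLCO1A2 (0.25), for TTR NRP2 (0.37) and MUM1L1 (0.38), and for AHSG FRMD4B (0.44). For VTN they were HPS1 (0.14) and ZFYVE26 (0.15), for C3 ALDH3B1 (0.24) and CDYL2 (0.25), and for SERPINA1 RINL (0.13) and ANKZF1 (0.16). Second after FGG for FGA was OXCT1 (0.64), and after PF4 for FGG it was BASP1 (0.62). Apart from FGG beside FGA, no other of the 10 genes was among the nearest 2 of any of them. A gene that changes little lies near many others on this measure, so the distances of different genes are not on a common footing. Nor does a small distance mean an equal fold change. PF4 had log2 fold changes of 8.11 with g1 and 4.30 with g2, against 3.65 and 1.12 for FGG. MUM1L1 had 6.15 and -1.50, against 2.11 and 0.42 for TTR. Such larger fold changes at a small distance on log2(CPM + 1) require a very low gCtl level. The fold changes of PF4 and MUM1L1 thus rest on few gCtl counts, and the filter favoured these genes as higher with g1.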

How the data were processed

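RNA of 10 Caco-2 libraries (5 gCtl, 3 g1, 2 g2) was sequenced with a 3′ polyA method. The authors quantified reads against GENCODE transcripts with Kallisto (version 42.5 in the submitters' processing notes) and deposited estimated counts per transcript, neither normalized nor pooled. Here they were summed per gene, rounded and fitted with edgeR 4.0.16 (TMM, glmQLFit and glmQLFTest, R 4.3.3), with library totals over all genes. Tested were genes that have a protein-coding transcript and exceed 3 RPM in 20% of libraries. The fit of g1 and g2 together had 2 groups, the fits by guide 3 groups that shared 1 spread (biological coefficient of variation 0.205), which lends g2 its error. TPM was computed here from transcript lengths. Alternatives were DESeq2 1.42.0, other scalings and filters, limma 3.58.1 on log2(RPM + 1) and log2(TPM + 1), glmTreat, and each library left out. The 10 genes and the lists were chosen with earlier results of these data known. Named were the 10 genes, up to 3 largest called increases and decreases per list with g1 and g2 together, 8 fixed genes and up to 2 of the nearest profiles of each gene, and others are marked as chosen after their values were seen. For 14 within-group pairs, chi-square over its degrees of freedom was 4.29 to 26.1, so none repeated another within sampling noise. In simulated data with 200 of 11640 genes changed 3-fold, edgeR recovered 95% with g1 and g2 together, 92% with g1, 86% with g2 and 79.5% between the guides. The simulated counts followed the trend of spread in the 3-group fit, with no spread particular to a gene. In the simulation of g1 and g2 together, both guides had the same change. The guides differed in the real data, so these shares may be too high for them. Gene positions came from GENCODE on GRCh38 and promoter windows from RefSeq. Results on some genes that the rules would name are not reported here, and these genes were left out of the lists.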

Additional observations from a re-analysis of the deposited data

Results flagged for a closer look

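AHSG in gCtl replicate 1, at 120.0 CPM, lay far from the other 4 gCtl libraries (160.5 to 175.6 CPM), with a gap to the nearest of 0.729 of the whole range, against Dixon's 95% critical value of 0.71. Chance flags about 1 in 20 such groups.

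For 6 genes the effects of the guides differed by the direct edgeR test of g2 against g1. The log2 fold change was -3.05 for AHSG, -2.52 for FGG, -1.69 for TTR, -1.64 for RBP4, -1.49 for AGT and -0.99 for C3, each lower with g2. For RBP4 the guides also moved in opposite directions from gCtl, with every g1 library above and both g2 libraries below the gCtl range.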

How the results depend on the processing

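No paired analysis was possible because the labels carry no replicate numbers. Tested against a 1.5-fold change (glmTreat), 488 genes and 4 of the 10 plasma protein genes were called with g1 and g2 together (2232 and 8 in the test used), 506 and 5 with g1 (1950 and 9), 802 and 3 with g2 (2757 and 5) and 92 for g2 against g1 (580). This test asks for more than the fold threshold itself. On log2(TPM + 1), 5 of the 10 and 2079 of all 11640 genes were called with g1 and g2 together, where C3 (0.04), FGA (1.51) and SERPINA1 (0.31) lost the call (limma adjusted p = 0.94, 0.0556 and 0.38), and the g2 values of C3 (-0.56) and SERPINA1 (-0.095) turned negative; the cause was not tested. The difference of g2 from g1 in FGB turned to -0.37 on log2(RPM + 1), -0.32 on log2(TPM + 1) and ran from -1.43 without g2 replicate 1 to 0.92 without g2 replicate 2. The g2 values turned to -0.24 for FGA without g2 replicate 1, and to -0.25 for C3 and -0.16 for SERPINA1 without g2 replicate 2, and without the other g2 library they were 1.81, 0.72 and 0.66. Leaving out each library gave 1703 to 2424 genes and 7 to 8 of the 10 with g1 and g2 together, 1256 to 2260 and 9 with g1, 1498 to 3111 and 5 to 6 with g2, and 267 to 859 and 5 to 7 for g2 against g1. The lowest counts came without g1 replicate 3 (1256), g2 replicate 2 (1498), and, for g2 against g1, g1 replicate 1 (267) or 2 (314). Scaling by library totals moved the median of all genes to -0.16 with g2 and -0.10 for g2 against g1, and the share of lower genes among those called from 57.5% to 69.4% with g1 and g2 together, from 54.9% to 73.3% with g2 and from 68.6% to 83.4% for g2 against g1. Over the single genes, 665 values kept their direction and side of the threshold, 36 lost the call, 11 gained it and 8 turned. With 12 to 32 counts per gCtl library, FGG is limited by depth, and the 2 g2 libraries, which differ most on FGA, FGB, FGG, C3 and SERPINA1, limit that guide.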
